A study of Homo sapiens with 9 samples.

Results

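The genes described here were 50 genes of ribosome biogenesis, the making of ribosomes from ribosomal RNA and proteins, in the human prostate cancer cell line LNCaP. They were listed by name, with no value used as a criterion but with earlier results of these data known, and every one of them was among the 37351 genes of the deposited count table. All 50 also had at least 10 counts in at least 3 libraries and were among the 19250 genes tested. By the step at which they act they comprised 2 subunits of RNA polymerase I, 7 proteins of small nucleolar ribonucleoproteins (snoRNPs), 18 factors of the small (40S) subunit, 18 factors of the large (60S) subunit and 5 other nucleolar proteins.

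Ribosomes are built in the nucleolus. RNA polymerase I transcribes a long precursor of ribosomal RNA, snoRNPs guide methyl groups and pseudouridine onto it, and large sets of assembly factors, among them helicases, GTPases and nucleases, fold and cut it into the RNAs of the small and large subunits, which are then exported to the cytoplasm. The pathway uses much of a growing cell's energy and is known to respond to growth factors and nutrients. Neuregulin 1 (NRG1) is a growth factor ligand of the receptor HER3, which signals as a pair with HER2 through the PI3K/AKT and MAPK pathways, both of which are known regulators of ribosome production.

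LNCaP is an established line from a lymph node metastasis of prostate carcinoma. Cells of all 9 libraries were kept in medium free of serum and calcium. The 0 h libraries are the baseline with no time in NRG1, and the others are of cells taken 12 or 24 h after 15 ng/mL recombinant NRG1 was added. There were 3 libraries per time, named by the submitters as biological replicates. All were messenger RNA libraries made from extracted total RNA, and levels of ribosomal RNA were not examined here. The samples include no cells held in the same medium to 12 or 24 h and given no NRG1, so that NRG1 and the added time in this medium cannot be told apart. The protocol describes triplicate wells, and whether the replicates were separate cultures was not stated, so the p-values measure the spread between these libraries, which may be technical.

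The libraries held between 58267359 and 60985825 counts at 0 h, between 48760003 and 54083444 at 12 h, and between 47016302 and 54605125 at 24 h, which made the 0 h libraries the deepest. Levels below are in CPM, counts brought to a common scaled library total. They give a gene's level relative to the other tested genes and would not show a rise of all RNA per cell. In such bulk RNA a change in the mixture of cells and a change of RNA per cell cannot be told apart. The CPM of the cell type markers that follow used unscaled totals of all counts. Luminal markers of LNCaP were present in every library, with 989 to 1333 CPM of KLK3, prostate-specific antigen, and 417 to 479 CPM of HOXB13, a transcription factor of the prostate. Markers of basal, fibroblast, endothelial and immune cells (KRT5, TP63, COL1A2, DCN, PECAM1, PTPRC and CD3E) were at or near 0, while COL1A1 stood at 21.4 to 26.3 CPM and VWF at 6.87 to 13.6 CPM.

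Many promoters of these genes share a short sequence, the canonical E-box CACGTG, which basic helix-loop-helix leucine zipper factors are known to bind. Promoters were the 300 bases from 250 before to 50 after the first transcription start listed for a gene in RefSeq (GRCh38.p14), and 42 of the 50 genes had one. CACGTG, which reads the same on both strands, was in 17 of these 42 promoters (40.5%), against 9.93% of the 11953 promoters of tested genes and 7.43% of all 27305 promoters. Of the 18 E-boxes found, 16 began within 40 bases of the start on either side and 12 at or after it. Positions were not counted in the promoters of the other tested genes. The windows of 30 bases around 10 of the 16 near the start follow as examples, from genes that did and did not pass the tests below. They are given 5′ to 3′ on the strand of the gene, with the E-box in capitals.
FBL (chr19:39846356-39846385, minus strand): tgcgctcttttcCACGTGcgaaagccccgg
RRP9 (chr3:51941892-51941921, minus strand): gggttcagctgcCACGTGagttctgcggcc
NAT10 (chr11:34105602-34105631, plus strand): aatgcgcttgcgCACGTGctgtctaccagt
WDR43 (chr2:28894658-28894687, plus strand): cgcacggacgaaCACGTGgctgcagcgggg
UTP20 (chr12:101280083-101280112, plus strand): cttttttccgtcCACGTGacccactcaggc
GNL2 (chr1:37595917-37595946, minus strand): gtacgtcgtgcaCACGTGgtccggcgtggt
PES1 (chr22:30591880-30591909, minus strand): tccttggcagggCACGTGcgggaggaagtg
NOC3L (chr10:94362903-94362932, minus strand): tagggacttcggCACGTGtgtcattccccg
MRTO4 (chr1:19251807-19251836, plus strand): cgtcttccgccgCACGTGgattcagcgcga
PUS7 (chr7:105522226-105522255, minus strand): gtcgctgcgccgCACGTGtgcgagcccggc

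The bases on either side of the E-box differ from gene to gene. The other 8 motifs searched on both strands were less far from the background. The ETS-like CTTCCGG was in 31.0% of the members' promoters and 18.0% of those of tested genes, the E-box variant CACGCG in 28.6% and 17.8%, and the NRF1 palindrome in 7.14% and 2.31%. The GC box GGGCGG stood at 71.4% and 67.7%, the CCAAT box at 42.9% and 36.7%, CATGTG at 4.76% and 6.97%, the TATA-like TATAAA at 4.76% and 6.22%, and the BANP palindrome at 2.38% and 0.845%. Matches of different motifs could overlap, and a match is a description of the letters and not of a bound factor.

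Most ribosome biogenesis genes rose by a small amount after 12 h of NRG1. At an adjusted p-value of at most 0.05 in edgeR's quasi-likelihood test, 41 of the 50 genes (82.0%) were higher at 12 h than at 0 h and 0 were lower, against 10.6% of all tested genes higher and 8.16% lower. The median log2 fold change of the 50 genes was 0.20, a fold of 1.15, with values from -0.0092 for PPAN to 0.39 for NOP16, while the median of all tested genes was -0.0084. At 24 h against 0 h 37 genes (74.0%) were higher and 0 lower, against 11.6% and 9.48% of all tested genes, with a median of 0.17, a fold of 1.13, and values from -0.17 for NOP2 to 0.34 for LYAR. Both comparisons used the same 0 h libraries. The shares of all tested genes were not matched to the 50 genes in expression level, on which the size of a detectable change depends. At an unadjusted p under 0.05, and by DESeq2 either way, 0 of the 50 genes were lower at 12 h or at 24 h. Of the 19250 tested genes, 2669 were lower at 12 h and 2850 at 24 h at an unadjusted p under 0.05 in edgeR.

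In most of the genes the later libraries did not overlap those of 0 h. In 41 genes all 3 libraries of 12 h lay above all 3 of 0 h, against 17.5% of all tested genes, and in 38 genes all 3 of 24 h did, against 17.3%. None of the 50 genes reached the fold change of 1.5 that the study used as its second criterion. The largest fold was 1.31 for NOP16 at 12 h and 1.27 for LYAR at 24 h, and 0 of the 50 genes passed both criteria by edgeR or by DESeq2, against 0.992% of all tested genes higher at 12 h and 1.53% at 24 h. A test of any difference among the 3 times passed 40 genes, against 25.1% of all tested genes, and of these the mean was highest at 12 h in 22 and at 24 h in 18. The changes were small but so were their errors, with a median standard error of 0.041 on the log2 scale at 12 h. Among called genes the size of the change at 12 h was 0.21 in the median over these genes and 0.22 over all tested genes.

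**Figure D1:**
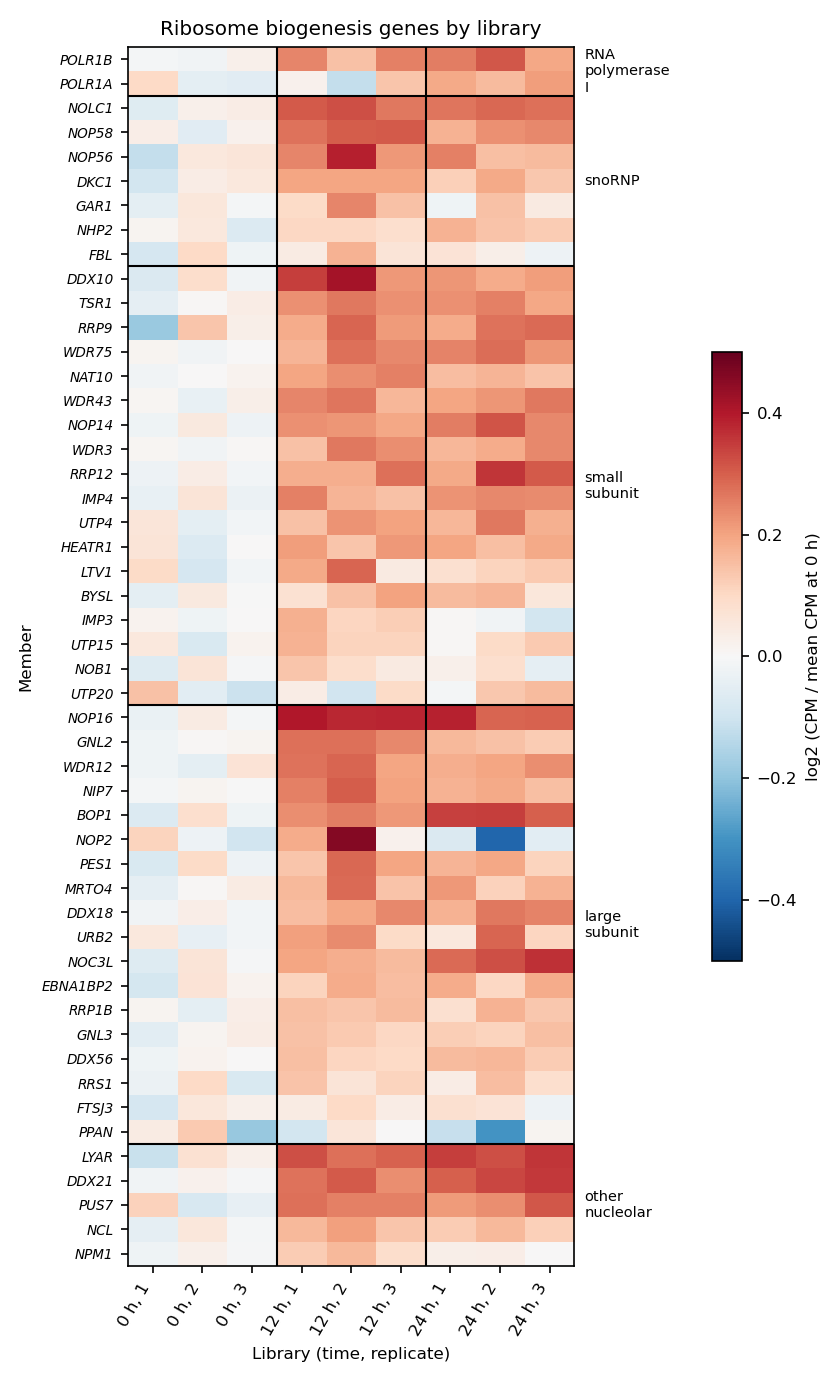
Heat map of the 50 genes (rows, grouped by step) in the 9 libraries (columns, time and replicate), with color giving the log2 ratio of a library's CPM to the gene's mean CPM at 0 h. The 12 h and 24 h columns are red for most rows in all 3 replicates, NOP2 and PPAN vary between replicates, and UTP20, FBL and NOB1 stay pale.

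**Figure D2:**
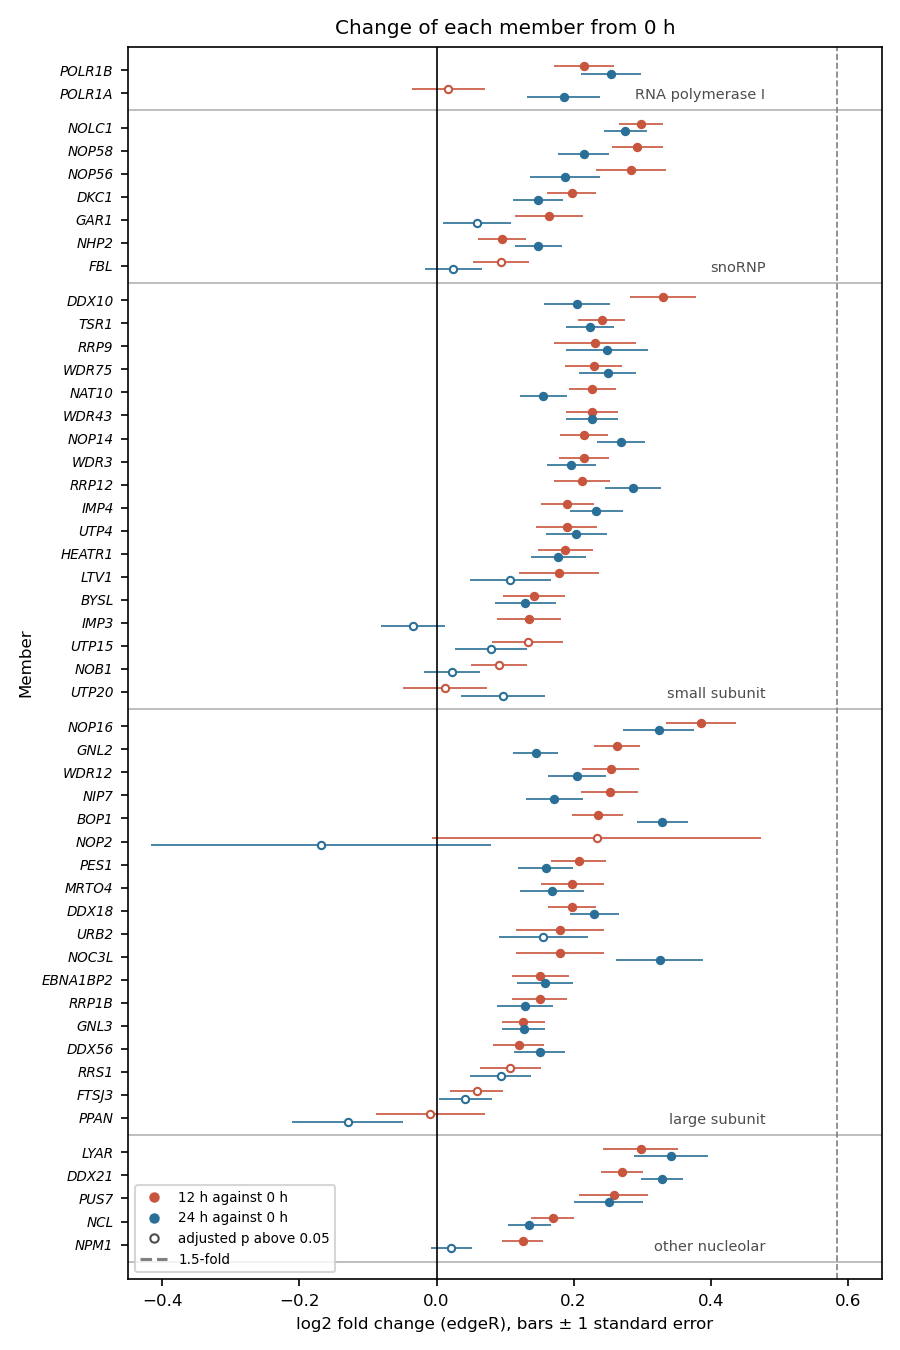
Fitted log2 fold change of each gene at 12 h (red) and 24 h (blue) against 0 h, with bars of 1 standard error, 3 libraries per time, and open symbols where the adjusted p was above 0.05. Filled symbols lie to the right of 0 and left of the dashed line at 1.5-fold, with the largest at 0.39 for NOP16.

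In what follows a value with ± is a fitted log2 fold change against 0 h with its standard error, and where 2 are given without a time the first is that of 12 h and the second that of 24 h. Of the subunits of RNA polymerase I, POLR1B rose at both times and POLR1A passed at 24 h, and the difference between the genes was not tested. POLR1B, the second largest subunit, had 40.4, 40.2 and 41.5 CPM at 0 h, 48.2, 45.1 and 48.5 CPM at 12 h and 48.7, 50.5 and 46.5 CPM at 24 h. All libraries of 12 and 24 h lay above those of 0 h, with a log2 fold change of 0.22 ± 0.044 (SE, adjusted p = 0.00035) at 12 h and 0.25 ± 0.043 (SE, adjusted p = 2.74e-05) at 24 h. POLR1A, which holds most of the catalytic center, stood at 88.8, 80.0 and 79.8 CPM at 0 h, 84.2, 76.2 and 91.3 CPM at 12 h and 94.6, 92.5 and 95.8 CPM at 24 h. Its 12 h libraries spanned those of 0 h, and at 12 h the log2 fold change was 0.017 ± 0.054 (SE, adjusted p = 0.88), with a 95% interval of -0.088 to 0.12. At 24 h all libraries lay above 0 h, with 0.19 ± 0.053 (SE, adjusted p = 0.0179). That call was lost when 0 h replicate 2 or 3 or 24 h replicate 1 or 3 was left out (0.16 to 0.19, adjusted p = 0.0599 to 0.0921), and without scaling of the libraries (0.19, adjusted p = 0.0757).

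Of the 7 snoRNP genes 6 rose at 12 h and 5 at 24 h, with medians of 0.20 and 0.15 on the log2 scale. NOLC1, a chaperone of snoRNPs that moves between nucleolus and Cajal bodies, was at 277, 294 and 296 CPM at 0 h, 358, 362 and 348 CPM at 12 h and 348, 353 and 349.9 CPM at 24 h. The lowest later library was well above the highest at 0 h, and the log2 fold change was 0.30 ± 0.032 (SE, adjusted p = 5.61e-09) at 12 h and 0.28 ± 0.032 (SE, adjusted p = 2.12e-08) at 24 h. NOP58 and NOP56 are paired core proteins of the box C/D snoRNPs, which guide methylation of ribosomal RNA. NOP58 stood at 68.3, 64.1 and 67.7 CPM at 0 h, 80.5, 82.2 and 82.6 CPM at 12 h and 75.3, 78.2 and 78.7 CPM at 24 h. It rose by 0.29 ± 0.037 (SE, adjusted p = 1.99e-07) at 12 h and by 0.21 ± 0.037 (SE, adjusted p = 3.44e-05) at 24 h, both without overlap with 0 h. NOP56 had 126, 142 and 143 CPM at 0 h, 162, 179 and 159 CPM at 12 h and 163, 152 and 153 CPM at 24 h. Replicate 2 stood highest at 12 h, and the log2 fold changes were 0.28 ± 0.050 (SE, adjusted p = 0.000546) at 12 h and 0.19 ± 0.051 (SE, adjusted p = 0.0125) at 24 h. The latter call was lost without 24 h replicate 1 (0.16, adjusted p = 0.053).

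FBL, fibrillarin, the methyltransferase of the same box C/D particles, stood at 324, 368 and 338 CPM at 0 h, 354, 387 and 358 CPM at 12 h and 360.3, 350.4 and 337 CPM at 24 h. The 0 h libraries overlapped those of both later times, and FBL passed neither test, with 0.094 ± 0.041 (SE, adjusted p = 0.124) at 12 h (95% interval 0.013 to 0.18) and 0.025 ± 0.041 (SE, adjusted p = 0.751) at 24 h (95% interval -0.057 to 0.11). Replicate 2 was the highest of the 0 h libraries, and without it the 12 h value passed (0.15, adjusted p = 0.0066), as it did with the trend on GC content and length removed (0.11, adjusted p = 0.0332).

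DKC1, dyskerin, the pseudouridine synthase of the box H/ACA snoRNPs, was at 121, 132 and 134 CPM at 0 h, 148, 148 and 148 CPM at 12 h and 140.0, 147 and 142 CPM at 24 h. The 12 h libraries were nearly equal and all later libraries lay above 0 h, with 0.20 ± 0.036 (SE, adjusted p = 8.76e-05) at 12 h and 0.15 ± 0.036 (SE, adjusted p = 0.00222) at 24 h. Its partners GAR1 and NHP2 also rose at 12 h, by 0.16 ± 0.049 (SE, adjusted p = 0.0161) and 0.10 ± 0.035 (SE, adjusted p = 0.0495). GAR1 lost this call without 0 h replicate 1 or 12 h replicate 2 (0.12 to 0.14, adjusted p = 0.0634 to 0.135), and NHP2 lost it without 0 h replicate 3 or any 1 of the 12 h libraries (0.066 to 0.11, adjusted p = 0.0715 to 0.25), without scaling, with all genes kept and in a fit of only the 6 libraries compared (adjusted p = 0.0821, 0.0926 and 0.0634). At 24 h NHP2 stood at 0.15 ± 0.035 (SE, adjusted p = 0.00146) and GAR1 did not pass, at 0.060 ± 0.050 (SE, adjusted p = 0.457).

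Among the 18 small subunit factors 15 rose at 12 h and 13 at 24 h, with a median of 0.20 at both times. DDX10, an RNA helicase of early processing, stood at 35.0, 39.1 and 36.3 CPM at 0 h, 46.8, 49.1 and 42.8 CPM at 12 h and 42.9, 41.8 and 42.5 CPM at 24 h. The 12 h libraries spread more than those of 24 h, and both lay above 0 h, with 0.33 ± 0.048 (SE, adjusted p = 3.04e-06) at 12 h and 0.20 ± 0.049 (SE, adjusted p = 0.00178) at 24 h. TSR1, a factor of late pre-40S particles related to GTPases, had 90.7, 93.9 and 95.8 CPM at 0 h, 109.6, 112 and 109.5 CPM at 12 h and 109.6, 111 and 107 CPM at 24 h. It rose by 0.24 ± 0.035 (SE, adjusted p = 2e-06) and 0.22 ± 0.035 (SE, adjusted p = 5.42e-06), with every later library above every 0 h library. RRP9, a protein of the U3 snoRNP, stood at 38.1, 47.8 and 44.2 CPM at 0 h, 49.4, 53.0 and 50.3 CPM at 12 h and 49.4, 52.3 and 52.8 CPM at 24 h. The 0 h libraries were far apart with replicate 1 lowest, and the log2 fold changes were 0.23 ± 0.060 (SE, adjusted p = 0.0096) and 0.25 ± 0.060 (SE, adjusted p = 0.00493).

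RRP12, which takes part in the maturation and export of pre-40S particles, was at 64.4, 67.2 and 64.97 CPM at 0 h, 74.2, 74.4 and 79.3 CPM at 12 h and 74.8, 83.9 and 81.0 CPM at 24 h. It was among the genes with a higher mean at 24 h than at 12 h, with 0.21 ± 0.041 (SE, adjusted p = 0.000179) at 12 h and 0.29 ± 0.041 (SE, adjusted p = 1.26e-06) at 24 h. NOP14, a component of the small subunit processome, stood at 87.2, 91.6 and 87.0 CPM at 0 h, 104, 103 and 101 CPM at 12 h and 106, 110.1 and 105 CPM at 24 h. It rose by 0.22 ± 0.035 (SE, adjusted p = 1.85e-05) at 12 h and 0.27 ± 0.035 (SE, adjusted p = 2.51e-07) at 24 h, with no overlap. WDR75 belongs to the UTP-A complex, which binds the nascent precursor RNA, and had 41.8, 41.0 and 41.5 CPM at 0 h, 46.6, 50.2 and 49.0 CPM at 12 h and 49.2, 50.3 and 48.3 CPM at 24 h. All later libraries lay above 0 h, and the log2 fold changes were 0.23 ± 0.042 (SE, adjusted p = 8.18e-05) and 0.25 ± 0.042 (SE, adjusted p = 1.87e-05).

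Of the other UTP-A components, at 12 h WDR43 rose by 0.23 ± 0.038 (SE, adjusted p = 2.29e-05), UTP4 by 0.19 ± 0.045 (SE, adjusted p = 0.00179) and HEATR1 by 0.19 ± 0.040 (SE, adjusted p = 0.000649), and at 24 h they stood at 0.23, 0.20 and 0.18 and passed again. UTP15 of the same complex did not pass, with 0.13 ± 0.052 (SE, adjusted p = 0.0728) at 12 h and 0.080 ± 0.052 (SE, adjusted p = 0.319) at 24 h, although its 12 h libraries lay above those of 0 h. Without 0 h replicate 1 it passed at 12 h (0.16, adjusted p = 0.0439). UTP20, a large scaffold protein of the processome, stood at 36.7, 32.0 and 30.8 CPM at 0 h, 34.0, 31.1 and 35.5 CPM at 12 h and 33.0, 36.4 and 37.1 CPM at 24 h. All 3 times overlapped, with 0.013 ± 0.061 (SE, adjusted p = 0.925) at 12 h (95% interval -0.11 to 0.13) and 0.10 ± 0.061 (SE, adjusted p = 0.304) at 24 h, and the 24 h value passed without 0 h replicate 1, the highest of its group (0.18, adjusted p = 0.018).

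IMP3 and IMP4 are partners that join the U3 snoRNA to the precursor RNA. IMP3 was at 31.7, 30.9 and 31.3 CPM at 0 h, 35.4, 33.7 and 34.0 CPM at 12 h and 31.4, 30.9 and 29.3 CPM at 24 h. Its 12 h libraries lay above and its 24 h libraries within or below those of 0 h, with 0.14 ± 0.046 (SE, adjusted p = 0.037) at 12 h and -0.034 ± 0.047 (SE, adjusted p = 0.688) at 24 h. The 12 h call was lost when any 1 library but 0 h replicate 1 or 12 h replicate 2 was left out (0.12 to 0.14, adjusted p = 0.0612 to 0.155) and without scaling, with all genes kept or with the trend on GC content and length removed (adjusted p = 0.0627, 0.0693 and 0.0528). IMP4 stood at 0.19 ± 0.039 (SE, adjusted p = 0.000388) at 12 h and 0.23 ± 0.039 (SE, adjusted p = 1.94e-05) at 24 h.

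The remaining small subunit factors were NAT10, an acetyltransferase of ribosomal RNA, WDR3 of the UTP-B complex, and the pre-40S proteins LTV1, BYSL and NOB1. NAT10 rose by 0.23 ± 0.034 (SE, adjusted p = 5.07e-06) and 0.16 ± 0.034 (SE, adjusted p = 0.000836), and WDR3 by 0.21 ± 0.036 (SE, adjusted p = 2.77e-05) and 0.20 ± 0.036 (SE, adjusted p = 8.12e-05). LTV1 passed at 12 h only, with 0.18 ± 0.059 (SE, adjusted p = 0.0282) and a 24 h value of 0.11 ± 0.059 (SE, adjusted p = 0.216), and its 12 h libraries overlapped 0 h. That call was lost without 0 h replicate 2 or 3 or 12 h replicate 1 or 2 (0.12 to 0.18, adjusted p = 0.0776 to 0.232). BYSL passed at both times, with 0.14 ± 0.045 (SE, adjusted p = 0.0213) and 0.13 ± 0.045 (SE, adjusted p = 0.0343), and each call was lost when 1 of 4 libraries was left out, at 12 h without 0 h replicate 1 or 3 or 12 h replicate 2 or 3 (0.12 to 0.14, adjusted p = 0.0519 to 0.119) and at 24 h without 0 h replicate 1 or 3 or 24 h replicate 1 or 2 (0.11 to 0.13, adjusted p = 0.0736 to 0.15). The 24 h call of BYSL was also lost by DESeq2, with all genes kept and with libraries thinned to the smallest total (adjusted p = 0.0562, 0.0572 and 0.0632). NOB1, the nuclease that makes the final cut of 18S ribosomal RNA, stood at 0.091 ± 0.041 (SE, adjusted p = 0.121) and 0.022 ± 0.041 (SE, adjusted p = 0.77) and passed at 12 h only without 0 h replicate 2 (0.13, adjusted p = 0.0409).

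Among the 18 large subunit factors 14 rose at 12 h and 13 at 24 h, with medians of 0.19 and 0.16. NOP16, a protein of early pre-60S particles, stood at 20.9, 21.9 and 21.2 CPM at 0 h, 28.2, 27.7 and 27.8 CPM at 12 h and 27.9, 26.1 and 26.2 CPM at 24 h. Each later library exceeded each 0 h library by a clear margin, and the log2 fold changes were 0.39 ± 0.051 (SE, adjusted p = 4.44e-07) at 12 h and 0.32 ± 0.051 (SE, adjusted p = 8.15e-06) at 24 h. GNL2, a GTPase of pre-60S particles, had 103, 105 and 106 CPM at 0 h, 127, 127 and 124 CPM at 12 h and 117, 116 and 115 CPM at 24 h. The groups formed 3 separate levels with 12 h highest, at 0.26 ± 0.033 (SE, adjusted p = 1.65e-07) and 0.14 ± 0.033 (SE, adjusted p = 0.00119) against 0 h.

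PES1, BOP1 and WDR12 form the PeBoW complex, which is needed for processing of the RNAs of the large subunit. WDR12 stood at 47.01, 46.1 and 50.1 CPM at 0 h, 57.6, 58.5 and 54.7 CPM at 12 h and 54.2, 54.8 and 56.1 CPM at 24 h. BOP1 was at 85.0, 94.6 and 87.9 CPM at 0 h, 105, 106 and 104 CPM at 12 h and 113, 113 and 109.7 CPM at 24 h. PES1 stood at 193, 217 and 199.8 CPM at 0 h, 224, 248 and 233 CPM at 12 h and 229, 233 and 219.6 CPM at 24 h. The 3 genes rose together at 12 h, by 0.25 ± 0.042 (SE, adjusted p = 1.83e-05) for WDR12, 0.23 ± 0.037 (SE, adjusted p = 1.02e-05) for BOP1 and 0.21 ± 0.040 (SE, adjusted p = 0.000339) for PES1. At 24 h WDR12 stood at 0.21 ± 0.042 (SE, adjusted p = 0.000309), BOP1 at 0.33 ± 0.037 (SE, adjusted p = 1.11e-08) and PES1 at 0.16 ± 0.040 (SE, adjusted p = 0.00415). BOP1 had its highest libraries at 24 h, while in PES1 the 2 later times overlapped.

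NOC3L, which is part of a complex that moves pre-60S particles out of the nucleolus, had 12.6, 13.8 and 13.2 CPM at 0 h, 15.1, 15.0 and 14.7 CPM at 12 h and 16.1, 16.5 and 17.0 CPM at 24 h. Its levels were highest at 24 h in all 3 libraries, with 0.18 ± 0.064 (SE, adjusted p = 0.0465) at 12 h and 0.33 ± 0.064 (SE, adjusted p = 0.000194) at 24 h. The 12 h call was lost when any 1 of the 6 libraries but 0 h replicate 2 was left out (0.15 to 0.19, adjusted p = 0.0688 to 0.157) and by DESeq2 (0.18, adjusted p = 0.0616). It was also lost without scaling, with all genes kept, in thinned libraries, in a fit of only the 6 libraries and with the trend on GC content and length removed (adjusted p = 0.0682, 0.0777, 0.0783, 0.0543 and 0.0753). URB2, a nucleolar protein of early pre-60S particles, also passed at 12 h, with 0.18 ± 0.065 (SE, adjusted p = 0.0464). URB2 lost that call without 0 h replicate 2 or 3 or 12 h replicate 1 or 2 (0.16 to 0.18, adjusted p = 0.11 to 0.179) and by DESeq2, without scaling, in thinned libraries and with the trend on GC content and length removed (adjusted p = 0.0723, 0.0671, 0.0524 and 0.0626). At 24 h URB2 stood at 0.16 ± 0.065 (SE, adjusted p = 0.0873) and passed only without 24 h replicate 1 (0.20, adjusted p = 0.0413).

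NIP7 rose by 0.25 ± 0.041 (SE, adjusted p = 1.94e-05) and 0.17 ± 0.042 (SE, adjusted p = 0.00214), MRTO4, which is related to a ribosomal stalk protein, by 0.20 ± 0.046 (SE, adjusted p = 0.0017) and 0.17 ± 0.046 (SE, adjusted p = 0.00678), and the helicase DDX18 by 0.20 ± 0.035 (SE, adjusted p = 7.16e-05) and 0.23 ± 0.035 (SE, adjusted p = 5.1e-06). GNL3, nucleostemin, which had the highest level per length of annotated exon among the large subunit factors, rose by 0.13 ± 0.031 (SE, adjusted p = 0.00334) and 0.13 ± 0.031 (SE, adjusted p = 0.0026). EBNA1BP2 rose by 0.15 ± 0.041 (SE, adjusted p = 0.00736) and 0.16 ± 0.041 (SE, adjusted p = 0.0043), RRP1B by 0.15 ± 0.040 (SE, adjusted p = 0.00665) and 0.13 ± 0.041 (SE, adjusted p = 0.019), and the helicase DDX56 by 0.12 ± 0.037 (SE, adjusted p = 0.0193) and 0.15 ± 0.037 (SE, adjusted p = 0.00257). At 12 h EBNA1BP2 lost its call without 0 h replicate 1 (0.11, adjusted p = 0.064) and DDX56 without 0 h replicate 1 or 12 h replicate 1 (0.11, adjusted p = 0.0521 to 0.088) or with the trend on GC content and length removed (0.091, adjusted p = 0.0587). At 24 h RRP1B lost its call without 0 h replicate 2 or 24 h replicate 2 (0.11, adjusted p = 0.0973 to 0.114).

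Several large subunit factors passed neither test. RRS1, which brings the 5S RNA into the particle, stood at 0.11 ± 0.044 (SE, adjusted p = 0.0891) and 0.094 ± 0.044 (SE, adjusted p = 0.142) and passed at both times without 0 h replicate 2 (0.16, adjusted p = 0.0116 and 0.15, adjusted p = 0.0208), and at 24 h with the trend on GC content and length removed (adjusted p = 0.0434). FTSJ3, a methyltransferase, stood at 0.059 ± 0.038 (SE, adjusted p = 0.327) and 0.042 ± 0.038 (SE, adjusted p = 0.508). PPAN stood at 14.4, 15.4 and 12.3 CPM at 0 h, 13.2, 14.7 and 14.1 CPM at 12 h and 12.98, 11.4 and 14.2 CPM at 24 h. All 3 times overlapped, and the log2 fold change was -0.0092 ± 0.080 (SE, adjusted p = 0.959) at 12 h (95% interval -0.17 to 0.15) and -0.13 ± 0.080 (SE, adjusted p = 0.289) at 24 h (95% interval -0.29 to 0.028). NOP2, a methyltransferase of 28S ribosomal RNA, had the lowest counted level of the 50 genes, with 446 counts in all 9 libraries, and was at 0.968, 0.880 and 0.839 CPM at 0 h, 1.02, 1.23 and 0.909 CPM at 12 h and 0.852, 0.680 and 0.864 CPM at 24 h. Its libraries of 12 h and of 24 h each overlapped those of 0 h, while every 24 h library lay below every 12 h library. Its errors were several times those of the other genes, with 0.23 ± 0.24 (SE, adjusted p = 0.575) at 12 h (95% interval -0.24 to 0.70) and -0.17 ± 0.25 (SE, adjusted p = 0.711) at 24 h (95% interval -0.65 to 0.32). At these counts a change of the size seen in other members was not detectable for NOP2.

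All 5 other nucleolar genes rose at 12 h and 4 of them at 24 h, with medians of 0.26 and 0.25. LYAR, a nucleolar protein tied to cell growth, stood at 18.8, 21.4 and 20.6 CPM at 0 h, 25.3, 24.5 and 24.8 CPM at 12 h and 25.7, 25.3 and 25.9 CPM at 24 h. Every later library stood above 0 h, and the log2 fold changes were 0.30 ± 0.055 (SE, adjusted p = 9.29e-05) and 0.34 ± 0.054 (SE, adjusted p = 9.13e-06). DDX21, a helicase that acts in transcription and processing of ribosomal RNA, had 372, 382 and 376 CPM at 0 h, 454, 466 and 442 CPM at 12 h and 464, 475 and 481 CPM at 24 h. It had among the smallest adjusted p-values of the set, with 0.27 ± 0.031 (SE, adjusted p = 2.41e-08) at 12 h and 0.33 ± 0.031 (SE, adjusted p = 1.81e-10) at 24 h. PUS7, a pseudouridine synthase, stood at 31.2, 27.2 and 28.0 CPM at 0 h, 34.8, 34.2 and 34.3 CPM at 12 h and 33.4, 33.8 and 35.6 CPM at 24 h. It rose by 0.26 ± 0.050 (SE, adjusted p = 0.000211) and 0.25 ± 0.050 (SE, adjusted p = 0.000252).

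NCL (nucleolin) and NPM1 (nucleophosmin) are among the most abundant proteins of the nucleolus, and their transcripts held 42.3% of the summed level of the 50 genes at 0 h. NCL was at 1062, 1140 and 1091 CPM at 0 h, 1229, 1265 and 1209 CPM at 12 h and 1198, 1227 and 1191 CPM at 24 h. It rose by 0.17 ± 0.031 (SE, adjusted p = 0.000114) at 12 h and 0.14 ± 0.031 (SE, adjusted p = 0.00141) at 24 h without overlap. NPM1 stood at 1788, 1850 and 1812 CPM at 0 h, 1982, 2032 and 1932 CPM at 12 h and 1853, 1857 and 1821 CPM at 24 h. Its 12 h libraries lay above 0 h, at 0.13 ± 0.030 (SE, adjusted p = 0.00222), and its 24 h libraries lay within or just above the range of 0 h, at 0.021 ± 0.030 (SE, adjusted p = 0.694).

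Few of the genes changed between 12 and 24 h. None of the 50 genes rose at an adjusted p of at most 0.05 in edgeR, and 3 fell (IMP3, GNL2 and NPM1), against 3.03% of all tested genes higher and 3.05% lower. At an unadjusted p under 0.05 in edgeR 3 genes were higher and 7 lower, against 1816 higher and 1813 lower of the 19250 tested genes. DESeq2 called 1 gene higher at its adjusted p. Of the 50 genes 31 had a value below 0 and 19 above it, with a median log2 fold change of -0.018 (-0.032 to -0.0073 when 1 library was left out), against 0.0011 over all tested genes. IMP3 stood at -0.17 ± 0.047 (SE, adjusted p = 0.0233), GNL2 at -0.12 ± 0.033 (SE, adjusted p = 0.0236) and NPM1 at -0.10 ± 0.030 (SE, adjusted p = 0.0292). In each of these 3 genes every 24 h library lay below every 12 h library. Such separation was seen downward in 8 and upward in 6 of the 50 genes. Of the 19250 tested genes, 2370 were so separated downward and 2328 upward.

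These 3 calls rested on few libraries. IMP3 lost its call without 12 h replicate 1 or 3 or 24 h replicate 3 (-0.18 to -0.14, adjusted p = 0.055 to 0.149), GNL2 without 12 h replicate 1 or 2 or 24 h replicate 2 or 3 (-0.12 to -0.11, adjusted p = 0.0688 to 0.111), and NPM1 when any 1 of the 6 libraries but 12 h replicate 3 was left out (-0.11 to -0.085, adjusted p = 0.0681 to 0.214). The count of 3 became 0 without 12 h replicate 1 or 24 h replicate 3, 1 without 12 h replicate 2 or 24 h replicate 2, 2 without 24 h replicate 1 and 4 without 12 h replicate 3. The largest positive values were those of POLR1A, at 0.17 ± 0.054 (SE, adjusted p = 0.0768), and NOC3L, at 0.15 ± 0.064 (SE, adjusted p = 0.196), and neither passed.

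**Figure D3:**
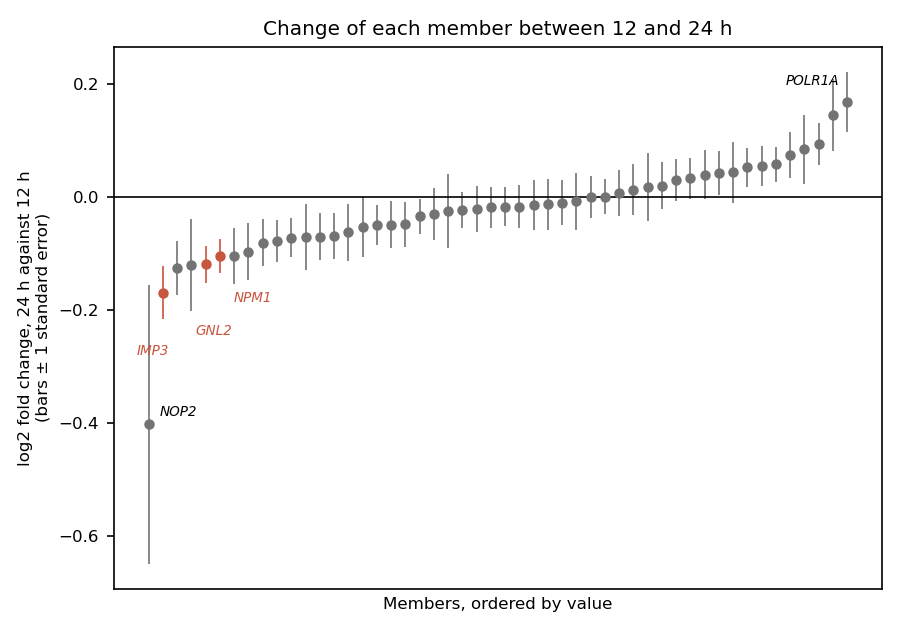
Fitted log2 fold change of each of the 50 genes between 12 and 24 h, ordered from lowest to highest, with bars of 1 standard error. IMP3, GNL2 and NPM1 (red) passed the test, NOP2 has the lowest value at -0.40 with a wide bar, and POLR1A the highest at 0.17.

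Summed over the 50 genes, the libraries held 6732, 7054 and 6889 CPM at 0 h, 7734, 7930 and 7644 CPM at 12 h and 7558, 7638 and 7514 CPM at 24 h. The means were 6891 ± 161 (SD, n = 3), 7770 ± 146 and 7570 ± 62.9 CPM, so that the summed level was 12.7% higher at 12 h and 9.84% higher at 24 h than at 0 h. Without NPM1 and NCL, a sum added after the values were seen, the means of the other 48 genes were 3977 ± 91.1, 4553 ± 69.7 and 4521 ± 29.2 CPM, a rise of 14.5% and 13.7%. Between 12 and 24 h the full sum fell by 2.57% and the sum without both genes fell by 0.72%, and in the latter the libraries of 12 and 24 h overlapped. The mean summed level was higher at 12 h than at 0 h in every step, with overlap of the libraries for RNA polymerase I, and the small subunit factors went from 982.7, 998 and 989 CPM to 1131, 1145 and 1131 CPM.

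**Figure D4:**
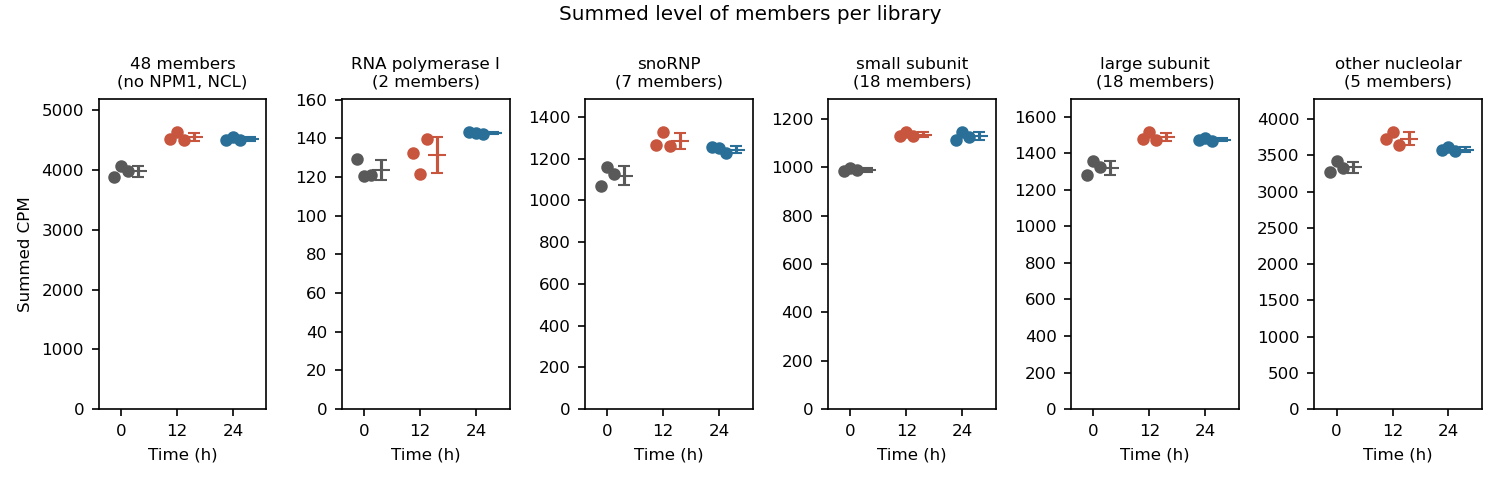
Summed CPM per library (points) for the 48 genes without NPM1 and NCL and for each step, with mean and SD (bars) of 3 libraries per time and axes that start at 0. In the first panel the 12 h and 24 h libraries lie between 4501 and 4633 CPM and the 0 h libraries at or below 4063 CPM.

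The rest of the pathway moved the same way with a smaller median. A list of 115 other ribosome biogenesis genes was written from general knowledge by the same steps. At 12 h 64 of them (55.7%) were higher and 2 lower, against 10.6% of all tested genes higher and 8.16% lower. Their median log2 fold change was 0.15. At 24 h 57 (49.6%) were higher and 2 lower, against 11.6% and 9.48% of all tested genes, with a median of 0.13. None of the 115 genes passed both criteria. By step, 5 of 14 genes of RNA polymerase I and its factors, 5 of 11 snoRNP genes, 24 of 43 small subunit, 29 of 44 large subunit and 1 of 3 other nucleolar genes were higher at 12 h. At 24 h these numbers were 4, 4, 24, 23 and 2.

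The largest rise at 12 h among those that passed was that of MAK16, a pre-60S protein, which had 30.1, 31.2 and 30.3 CPM at 0 h, 40.7, 39.6 and 38.4 CPM at 12 h and 37.1, 39.0 and 42.7 CPM at 24 h. Its log2 fold change was 0.37 ± 0.049 (SE, adjusted p = 3.33e-07) at 12 h and 0.38 ± 0.049 (SE, adjusted p = 2.08e-07) at 24 h. PNO1, the partner of the nuclease NOB1, stood at 14.5, 14.2 and 15.4 CPM at 0 h, 19.2, 17.9 and 19.4 CPM at 12 h and 20.2, 19.7 and 20.3 CPM at 24 h. It rose by 0.36 ± 0.060 (SE, adjusted p = 2.74e-05) and 0.45 ± 0.060 (SE, adjusted p = 4e-07), the largest rise at 24 h among those that passed, whereas NOB1 itself stood at 0.091 and 0.022 and passed neither test. NMD3, the export adaptor of the large subunit, rose by 0.29 ± 0.059 (SE, adjusted p = 0.000341) at 12 h and 0.26 ± 0.059 (SE, adjusted p = 0.00104) at 24 h, and MYBBP1A, a nucleolar protein, by 0.24 ± 0.045 (SE, adjusted p = 0.000413) and 0.33 ± 0.045 (SE, adjusted p = 4.62e-06).

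The genes that fell were few. NOP53 and RSL24D1, both of the large subunit, fell at 12 h, with -0.11 ± 0.033 (SE, adjusted p = 0.0141) and -0.10 ± 0.031 (SE, adjusted p = 0.0213). NOP53 lost this call without 0 h replicate 2 or 12 h replicate 3 (-0.10 to -0.083, adjusted p = 0.0689 to 0.108) and RSL24D1 without 0 h replicate 2 or 12 h replicate 1 or 2 (-0.094 to -0.084, adjusted p = 0.0759 to 0.102). At 24 h NVL, an ATPase of pre-60S release, and TSR2, a chaperone of a small subunit protein, fell, with -0.31 ± 0.043 (SE, adjusted p = 7.55e-07) and -0.19 ± 0.045 (SE, adjusted p = 0.00126). NVL was at 55.4, 53.2 and 55.5 CPM at 0 h, 52.1, 53.1 and 48.8 CPM at 12 h and 43.0, 46.2 and 42.9 CPM at 24 h. Its 24 h libraries lay below all others, and between 12 and 24 h it fell again, at -0.22 ± 0.044 (SE, adjusted p = 0.00101). TSR2, at -0.16 ± 0.045 (SE, adjusted p = 0.0288), NOP53, at 0.11 ± 0.033 (SE, adjusted p = 0.0477), and TSR3, at 0.14 ± 0.041 (SE, adjusted p = 0.035), were also called between these times. NOP53 lost that call without any 1 of the 6 libraries (0.079 to 0.12, adjusted p = 0.0536 to 0.259), TSR2 without 12 h replicate 2 or 3 or 24 h replicate 2 or 3 (-0.16 to -0.13, adjusted p = 0.0753 to 0.157), and TSR3 without 12 h replicate 2 or 3 or 24 h replicate 1 or 2 (0.12 to 0.14, adjusted p = 0.114 to 0.164).

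**Figure D5:**
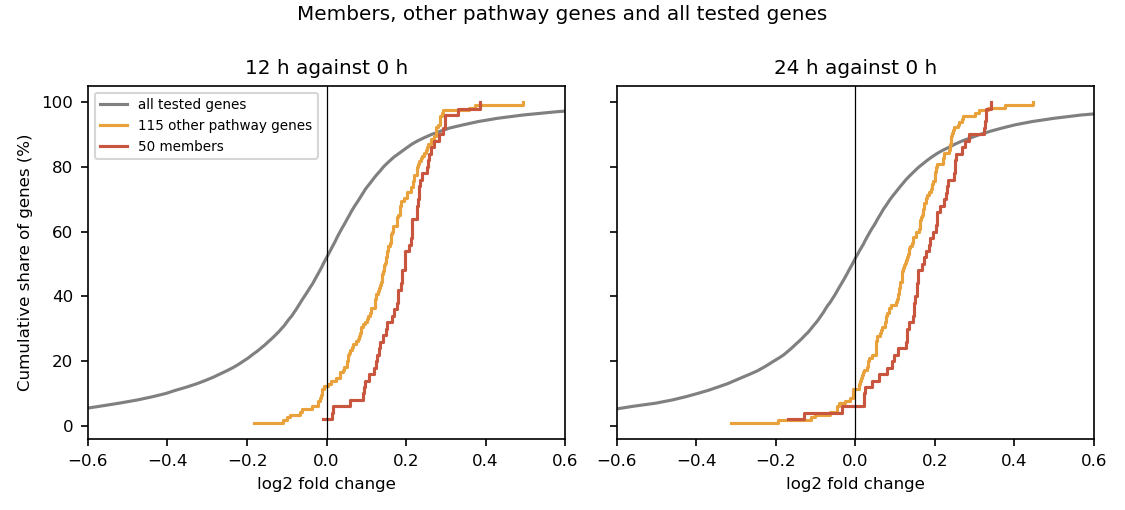
Cumulative share of genes (vertical axis, %) at or below a fitted log2 fold change (horizontal axis) at 12 h (left) and 24 h (right) against 0 h, for the 50 genes, the 115 other pathway genes and all 19250 tested genes. The curve of all genes crosses its middle near 0, that of the other pathway genes at 0.15 and 0.13 and that of the 50 genes at 0.20 and 0.17.

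The 50 genes covered a wide range of expression. Their mean levels at 0 h ran from 0.896 CPM for NOP2 to 1817 CPM for NPM1, with a median of 60.1 CPM. The level of NOP2 can lack reads from exons it shares with another gene, as described below. Per kilobase of annotated exon NPM1 stood at 219, FBL at 161, NCL at 123 and GNL3 at 95.8 CPM, DDX10 at 2.04 and NOP2 at 0.191. These lengths join the exons of every annotated transcript, with 18059 bases for DDX10 and 2138 for FBL. The values per kilobase therefore depend on the annotation as well as on expression. Across the 50 genes, which share their libraries and are not independent replicates, level at 0 h and log2 fold change at 12 h had a Pearson's r of -0.070 and a Spearman's rho of -0.030. The genes lay on 19 chromosomes, with at most 9 on any 1 of them. The counts were close for genes with and without an E-box. At 12 h 14 of the 17 genes with CACGTG in the promoter were higher, with a median of 0.20, and 20 of the 25 without it, with a median of 0.19. At 24 h the numbers were 13 of 17 with a median of 0.16 and 18 of 25 with a median of 0.17. UTP20 and FBL carry the E-box printed above and passed neither test.

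Some of these values can include reads of other genes or lack reads from shared exons. Neither the use of strand in the counting nor the handling of reads in shared exons was stated. In 12 genes the exons overlapped those of a neighbor with over 10% of their own counts (FTSJ3, GNL3, HEATR1, IMP3, NHP2, NIP7, NOP14, NOP16, PPAN, TSR1, UTP15 and WDR12). The neighbor of IMP3 on the other strand, SNX33, was lower at 24 h (log2 fold change -0.18, adjusted p = 0.0159), and so was P2RY11 beside PPAN (-0.26, adjusted p = 0.0261). NOP2 shared 54.4% of its exon bases and PPAN 47.6% with a read-through gene on the same strand. NPM1 had near-identical stretches in 7 other genes, mostly its pseudogenes, which together held 3.89% of its counts. The part of these overlaps in any value was not tested. In the 36 genes without such a neighbor, read-through gene or set of copies, a choice made after the values were seen, 31 were higher at 12 h with a median of 0.20 and 29 at 24 h with a median of 0.19.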

How the data were processed

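Messenger RNA libraries of LNCaP cells were sequenced by the authors, trimmed with Cutadapt, aligned with STAR to GRCh38 and assigned to GENCODE genes with featureCounts. The authors deposited whole-number counts per gene and library, not normalized and not pooled, and the strand setting was not stated. The study's methods say that 1 LNCaP library of time 0 was not included for its quality, without naming the treatment. Its legends give 3 replicates for NRG1 and fewer in part for ASPN, another ligand, and all 3 deposited 0 h libraries were used. Its 14 empty columns were left aside.

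Groups and replicate numbers came from the sample titles. All 9 libraries were fitted without covariates by edgeR 4.0.16 in R 4.3.3 (robust quasi-likelihood, filterByExpr, TMM scaling, 19250 genes), and the Benjamini-Hochberg adjustment ran over all genes tested in each of 3 comparisons. Values are CPM on scaled totals of the tested genes, except for cell type markers, which are on unscaled totals of all counts. Standard errors come from the F statistic. The 95% intervals are a normal approximation from these errors and can be narrower than the test implies. The biological coefficient of variation was 4.07%. Replicates of a time correlated at 0.991 to 0.993 across genes and differed by more than sampling noise. At 47016302 to 60985825 counts per library, precision from depth covers counting error only, since reads had no molecular identifiers.

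The 50 members, the list of 115 other genes and the tests were chosen with earlier results of these data known. Values of every library are given, in each step, for the 3 largest and the smallest fold changes at 12 and 24 h, for calls between 12 and 24 h and for 11 genes of known complexes. Of the 115 genes, those past the adjusted p with the 3 largest rises or falls are named, and calls between 12 and 24 h were added after their values were seen. Shared exons were read from GENCODE 44 and copies sought with BLAST 2.17.0 (at least 95% identity over 150 bases). The alternatives were DESeq2 1.42.0, other scalings and filters, fewer libraries, a replicate block, thinning to the smallest total, removal of trends on GC content and length, and an added fold threshold of 1.5. The fit was tested on simulated data, in which 50 genes drawn from all tested genes were changed at 12 h by each of several folds. It called 25 of 50 at a fold of 1.2, 30 at 1.3, 34 at 1.5 and 42 at 2.0.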

Additional observations from a re-analysis of the deposited data

Results flagged for a closer look

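The levels of 3 of the 50 members differed between 12 and 24 h in the test of these times against each other, all lower at 24 h. Of all tested genes, 3.03% were higher and 3.05% lower in the same test. Whether 3 of 50 differs from these shares was not tested. IMP3 had a log2 fold change of -0.17 (adjusted p = 0.0233), GNL2 of -0.12 (adjusted p = 0.0236) and NPM1 of -0.10 (adjusted p = 0.0292), each by edgeR with 3 libraries per time and with all 3 of 24 h below all 3 of 12 h. Libraries were so separated downward in 8 and upward in 6 of the 50 members, against 2370 and 2328 of the 19250 tested genes. All 3 calls were lost in some of the fits that left out 1 library. Beside these falls stood values of 0.14, 0.26 and 0.13 at 12 h against 0 h for IMP3, GNL2 and NPM1. SNX33, which overlaps IMP3 on the other strand, had a value of -0.14 between 12 and 24 h (adjusted p = 0.169), and the part of its reads in the value of IMP3 was not tested. Groups of 3 libraries are too small for a test of single outlying libraries.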

How the results depend on the processing

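The counts of genes higher moved little with the processing. Over DESeq2, other scalings and filters, the 6 libraries compared, thinning to the smallest total and removal of trends on GC content and length, 37 to 41 members were higher at 12 h and 36 to 38 at 24 h, and leaving out 1 library gave 35 to 41 and 35 to 37. With a fold change of at least 1.5 added, 0 members were higher at 12 h or 24 h, 0 changed between 12 and 24 h, and 0 of the 115 other genes were higher at either time. Of the single calls, 32 of 41 at 12 h, 33 of 37 at 24 h and 0 of 3 between these times held under every alternative but the added fold threshold, under which none did. Replicate numbers did not pair the libraries, with correlations of same-numbered deviations between -0.037 and 0.030. With a replicate block 41 members were higher at 12 h, 37 at 24 h and 4 changed between the times, while NOC3L was no longer called at 12 h (adjusted p = 0.0508) and FBL was (adjusted p = 0.0498).

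Leaving out 1 library at a time gave 0 to 4 members changed between 12 and 24 h, and 54 to 65 and 45 to 54 of the other genes higher at 12 and 24 h. Medians of the log2 fold change ranged from 0.16 to 0.23 at 12 h and 0.13 to 0.18 at 24 h for snoRNP genes, and from -0.088 to -0.041 between these times. Those of small subunit factors ranged from 0.19 to 0.21 at 24 h and from -0.017 to 0.0028 between the times. They ranged from 0.16 to 0.21 at 12 h for large subunit factors, and from 0.22 to 0.27 at 12 h and 0.21 to 0.29 at 24 h for the other nucleolar genes. Values that passed no test and changed sign were those of PPAN (-0.091 to 0.061), POLR1A (-0.044 to 0.086) and UTP20 (-0.035 to 0.097) at 12 h and FBL (-0.012 to 0.077) and NOB1 (-0.0081 to 0.057) at 24 h. The cause was not tested. NOP2, with 446 counts, had the largest standard errors of the members.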
